A study of Homo sapiens with 10 samples.

Results

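The vestigial-like cofactors VGLL1, VGLL3 and VGLL4, the TEAD transcription factors TEAD1, TEAD2, TEAD3 and TEAD4, the coactivators YAP1 and WWTR1, and CTGF, a target gene of the complex, were followed in PEO1 ovarian carcinoma cells and in clones of them that had become resistant to veliparib. These 10 genes were taken by symbol from a table of 25370 genes, and all 10 were found. They were chosen by their levels in the clones against parental cells, with that difference already known, so their values in that comparison are given as a description, and calls on it are only counted beside those of all genes.

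TEAD factors bind DNA but activate little by themselves. YAP1 and TAZ, the product of WWTR1, are coactivators that enter the nucleus and bind TEAD factors when the Hippo kinases are inactive, and are held in the cytoplasm when those kinases phosphorylate them. Vestigial-like proteins bind the same TEAD factors: VGLL1 can act with them as a cofactor, and VGLL4 competes with YAP1 and represses. In epithelial cells the pathway is known for its control by cell contact, and CTGF and CYR61 are among its best known targets.

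PEO1 is an established line from a high-grade serous ovarian carcinoma, known for its BRCA2 mutation, and veliparib is an inhibitor of PARP enzymes. The resistant libraries came from 4 clones, named ABTr1, ABTr2, ABTr3 and ABTr4 after the libraries. Each clone is a line of its own that had grown for 6 months in 40 µM veliparib and was taken off the drug 4 to 5 days before RNA was collected. They were set against parental PEO1, for which the labels give no drug exposure. Clones and parental cells shared the same medium, with serum and insulin, and each group had 2 libraries of polyadenylated RNA, called replicate 1 and replicate 2. The design text speaks of 15 samples in 3 experiments, and 10 libraries were analysed here. The labels do not say that libraries came from separate cultures, and the p-values below therefore reflect only how far these libraries lie apart, which may be technical.

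The libraries held 20640602 to 55488566 counts, and in every group replicate 1 was the deeper one. Levels are given as CPM, read counts scaled to the size of the library by TMM, and, where genes are set against each other, in CPM per kilobase of merged exon (RPKM). The 7 epithelial markers used to check the labelled cell type summed to between 2697 and 3534 CPM in clone libraries and to 9386 and 14505 CPM in parental libraries. EPCAM, which marks epithelial cells, averaged 110 ± 36.4 CPM in the clones (SD, n = 4) and 543 ± 0.586 CPM in parental cells (SD, n = 2). Of the 5 Müllerian and serous markers SOX17 was at 0 in all libraries, and the sum ran from 137 to 336 CPM in clone libraries and from 262 to 358 CPM in parental ones. MUC16 did not overlap, at 0 to 1.16 CPM in clone libraries against 20.7 and 66.4 CPM in parental ones. WT1, at 0.145 to 3.21 CPM against 13.9 and 2.63 CPM, overlapped, as did PAX8 and MSLN. The defining fibroblast markers DCN, LUM and COL3A1 were at 0 in all 10 libraries, and the 6 fibroblast markers summed to 1.97 to 16.8 CPM in clone libraries and to 8.28 and 8.71 CPM in parental libraries. Markers of leukocytes summed to 3.23 to 18.6 CPM in clone libraries and to 9.65 to 19.6 CPM in parental ones, and those of mesothelium to 9.16 to 25.7 CPM and 16.6 to 25.8 CPM in clone and parental libraries. The mesothelial LRRN4 was higher in the clones, at 6.65 to 17.6 CPM against 1.02 and 0.0774 CPM. UPK3B was lower there, at 0.645 to 2.55 CPM against 11.1 and 20.6 CPM, CALB2 overlapped and ITLN1 was barely read. Markers of endothelium summed to 2.01 to 16.3 CPM in clone libraries and to 15.5 to 62.3 CPM in parental ones, where CDH5 alone reached 61.6 CPM. VWF was higher in the clones, at 0.516 to 2.06 CPM against 0.0496 and 0.464 CPM. KDR was higher there as well, at 0.386 to 2.28 CPM against 0.372 and 0.0387 CPM, and PECAM1 overlapped. In RNA of whole cultures, fewer cells of a type and less RNA per cell cannot be told apart.

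TEAD factors recognise a short core element, and the start regions of 3 genes are shown because they hold it and because their levels carry results below. The letters GGAATG were searched on both strands, which adds CATTCC, in the 250 bases before each RefSeq transcript start of build GRCh38.p14. Capitals mark these letters, and each run is written in the direction of the gene. The CTGF region, chr6:131951373-131951622 on the minus strand, holds the element 3 times.
CTGF: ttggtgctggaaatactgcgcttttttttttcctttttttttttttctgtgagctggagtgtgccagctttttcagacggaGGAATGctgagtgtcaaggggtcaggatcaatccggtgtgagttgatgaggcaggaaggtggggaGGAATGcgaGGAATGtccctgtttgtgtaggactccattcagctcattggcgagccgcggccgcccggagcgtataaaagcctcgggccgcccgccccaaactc
The VGLL1 region, chrX:136531965-136532214 on the plus strand, holds it 1 time, on the opposite strand.
VGLL1: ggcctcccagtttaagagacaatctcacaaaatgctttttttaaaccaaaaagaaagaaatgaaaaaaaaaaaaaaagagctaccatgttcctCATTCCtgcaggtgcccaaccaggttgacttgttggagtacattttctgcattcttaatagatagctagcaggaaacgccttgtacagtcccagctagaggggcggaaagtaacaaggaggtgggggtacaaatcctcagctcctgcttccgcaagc
The region of ANKRD1, a target gene described with the pathway lists, lies at chr10:90921088-90921337 on the minus strand and holds it 2 times.
ANKRD1: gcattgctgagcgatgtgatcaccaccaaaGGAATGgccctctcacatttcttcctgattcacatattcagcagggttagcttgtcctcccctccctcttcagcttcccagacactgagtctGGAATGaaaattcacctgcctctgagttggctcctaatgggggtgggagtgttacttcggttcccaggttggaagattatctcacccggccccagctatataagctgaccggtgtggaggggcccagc

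Of all 35116 start regions in the RefSeq table, 11.9% held the letters at least 1 time, 0.940% held them 2 or more times and 0.0826%, or 29 regions, held them 3 or more times. Of the 10 genes, 8 were matched to 14 start regions, and 3 of these 14 held the letters, those of CTGF, VGLL1 and YAP1. TEAD1 and TEAD4 were not matched. Of 17 regions, which cover 15 of the 21 listed YAP and TAZ target genes, 7 held them (41.2%). They were also in 3 of 22 regions of the listed Hippo kinases and adaptors (13.6%), 2 of 20 of the junction and polarity genes, 0 of 9 of the AP-1 subunits and 1 of 2 of the other vestigial-like and CCN genes. A match is a description of the letters in the window and not a binding site.

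VGLL1, a cofactor that binds TEAD factors and is normally found in placenta and some epithelia, was the gene with the widest gap. It lies at chrX:135614311-135638966 on the plus strand of hg19, the build of all gene positions from here on. The clone libraries held 2 and 0 reads in ABTr1, 3 and 2 in ABTr2, 0 and 0 in ABTr3 and 2 and 0 in ABTr4, against 4986 and 3984 reads in parental cells, giving replicate 1 first. No clone library held more than 3 reads, and the groups did not overlap. In CPM the clones averaged 0.0313 ± 0.0319 (SD, n = 4) and parental cells 138.9 ± 21.6 (SD, n = 2). Scaled for depth, the level in ABTr1 was 4599 times below that of parental PEO1 (95% counting interval 1273 to 37985), in ABTr2 2053 times below it (879 to 6324) and in ABTr4 5351 times below it (1481 to 44195). ABTr3, with 0 reads over its libraries, was at least 3890-fold lower than parental PEO1, taking 3 counts over the clone as the floor. These intervals cover counting error alone. VGLL1 passed the filter on low counts only through its parental libraries, and the other 9 genes had reads in every library.

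VGLL3, a further TEAD cofactor (chr3:86987123-87040257, minus strand), was low throughout. Its levels were 8.20 and 7.44 CPM in ABTr1, 10.6 and 4.64 CPM in ABTr2, 13.3 and 6.82 CPM in ABTr3 and 5.55 and 3.76 CPM in ABTr4, against 7.27 and 12.5 CPM in parental cells. The clone libraries lay on both sides of the parental ones. The fitted log2 difference of the clones was -0.44 (SE 0.39), and it was 0.00 without parental replicate 2.

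VGLL4, the repressor of the family (chr3:11597541-11762242, minus strand), was read in all libraries. It had 72.0 and 88.0 CPM in ABTr1, 48.2 and 60.8 CPM in ABTr2, 41.2 and 51.7 CPM in ABTr3 and 35.9 and 41.4 CPM in ABTr4, against 60.8 and 108.6 CPM in parental cells. ABTr1 was the highest clone and ABTr4 the lowest, and only ABTr1 reached the parental range in both libraries. The fitted log2 difference of the clones was -0.68 (SE 0.24), but -0.20 without parental replicate 2 and -1.08 without parental replicate 1. Of its 5108 exon bases 1599 overlap ATG7 on the opposite strand, and since the libraries are not stranded its value is uncertain.

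TEAD1 (chr11:12695969-12966284, plus strand), a TEAD factor of wide expression, was at 271.8 and 226.4 CPM in ABTr1, 260.6 and 161.8 CPM in ABTr2, 269.8 and 199.7 CPM in ABTr3 and 265.2 and 213.4 CPM in ABTr4, against 414.1 and 282.9 CPM in parental cells. All 8 clone libraries lay below both parental libraries, and in each of the 5 groups replicate 1 was the higher. The means were 233.6 ± 16.1 CPM over the 4 clones and 348.5 ± 92.8 CPM over the 2 parental libraries (SD), a log2 difference of -0.58 (SE 0.25). With the replicate number as a block the difference was -0.57 (SE 0.14). It was -0.32 without parental replicate 1, -0.83 without parental replicate 2 and -0.35 (SE 0.26) with library totals.

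TEAD2 (chr19:49843853-49865714, minus strand), the TEAD factor best known from early mouse embryos, was even across the clones. It had 23.7 and 27.9 CPM in ABTr1, 22.5 and 18.5 CPM in ABTr2, 23.2 and 27.5 CPM in ABTr3 and 24.0 and 24.9 CPM in ABTr4, against 14.4 and 1.93 CPM in parental cells. Every clone library was above both parental libraries, and the parental libraries lay further from each other than any clone libraries did. The log2 difference of 1.54 (SE 0.60) was 0.73 without parental replicate 2 and 3.59 without parental replicate 1. The direction held without either, and the size rests on the parental libraries.

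TEAD3 (chr6:35441374-35464861, minus strand), a TEAD factor abundant in placenta, was lower in the clones. It was at 24.3 and 28.5 CPM in ABTr1, 17.6 and 18.9 CPM in ABTr2, 18.2 and 23.7 CPM in ABTr3 and 22.6 and 22.1 CPM in ABTr4, against 35.1 and 44.0 CPM in parental cells. The groups did not overlap, and the clones averaged 22.0 ± 3.41 CPM (SD, n = 4) and parental cells 39.6 ± 6.29 CPM (SD, n = 2). Its log2 difference was -0.86 (SE 0.19) and stayed between -1.05 and -0.62 under all other settings.

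TEAD4 (chr12:3068478-3149842, plus strand), the TEAD factor required for the trophectoderm in mouse, differed between the replicates of every group. It had 38.6 and 24.5 CPM in ABTr1, 80.7 and 30.3 CPM in ABTr2, 69.5 and 47.3 CPM in ABTr3 and 84.5 and 40.0 CPM in ABTr4, against 117.0 and 63.4 CPM in parental cells. Pooled over replicates the groups overlapped, since replicate 1 of 3 clones exceeded parental replicate 2. Within a replicate number each clone lay below parental PEO1, at a ratio of mean CPM of 0.584 in replicate 1 and 0.561 in replicate 2. The log2 difference was -0.84 (SE 0.41), and -0.85 (SE 0.17) with the replicate number as a block. It was -0.37 without parental replicate 1, -1.22 without parental replicate 2 and -0.62 (SE 0.42) with library totals.

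**Figure D1:**
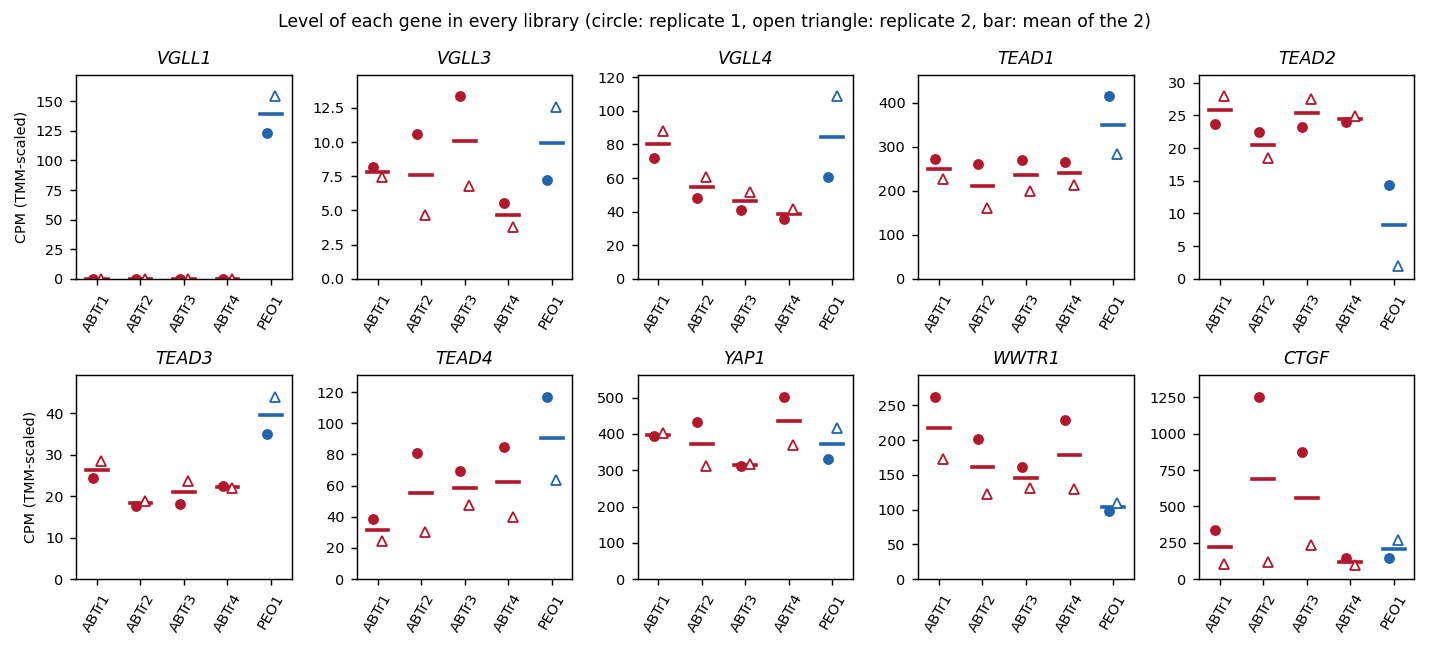
TMM-scaled CPM on a linear axis from 0, 1 panel per gene, for the clones ABTr1 to ABTr4 (red) and parental PEO1 (blue); circles are replicate 1, open triangles replicate 2, and each bar the mean of the 2 libraries. VGLL1 is at the baseline in all clones against 138.9 CPM in parental cells, TEAD2 and WWTR1 are higher in every clone library, and CTGF spreads from 95.7 to 1255 CPM among clone libraries.

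YAP1 (chr11:101981192-102104154, plus strand), the coactivator itself, was at 393.5 and 402.9 CPM in ABTr1, 434.2 and 311.2 CPM in ABTr2, 312.6 and 316.1 CPM in ABTr3 and 502.8 and 368.8 CPM in ABTr4, against 330.1 and 415.5 CPM in parental cells. Clone libraries lay above, between and below the parental ones. Means were 380.3 ± 51.0 CPM in the clones (SD, n = 4) and 372.8 ± 60.4 CPM in parental cells (SD, n = 2). The log2 difference was 0.02 (SE 0.22) with TMM and 0.26 with library totals, and its sign changed when single libraries were left out (-0.18 to 0.19).

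WWTR1 (chr3:149235022-149421060, minus strand), which encodes TAZ, had 262.6 and 172.7 CPM in ABTr1, 201.7 and 122.0 CPM in ABTr2, 161.3 and 130.9 CPM in ABTr3 and 229.5 and 129.0 CPM in ABTr4, against 97.3 and 109.7 CPM in parental cells. All 8 clone libraries were above both parental libraries. The margin was wider in replicate 1, where the clones averaged 2.20 times parental PEO1, than in replicate 2, where they averaged 1.26 times. The log2 difference was 0.75 (SE 0.31).

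CTGF (chr6:132269317-132272518, minus strand), a secreted matricellular protein now named CCN2 and a target of YAP1 and TAZ with TEAD factors, had the widest spread in CPM of the 10 genes among the clone libraries. It was at 340.5 and 104.7 CPM in ABTr1, 1255 and 116.5 CPM in ABTr2, 874.2 and 237.6 CPM in ABTr3 and 145.5 and 95.7 CPM in ABTr4, against 144.7 and 266.2 CPM in parental cells. In replicate 1 all 4 clones were above parental PEO1, at 4.52 times its level on average, and in replicate 2 all 4 were below it, at 0.521 times. The pooled log2 difference of 0.63 (SE 0.83) was -0.01 without replicate 1 of ABTr2 and 0.06 with the replicate number as a block.

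Counted as a description, 2 of the 10 genes had an adjusted p under 0.05 in edgeR's quasi-likelihood test of the mean of the 4 clones against parental cells, VGLL1 and TEAD3, both lower, where 16.0% of all 16490 tested genes did (7.17% higher and 8.79% lower). The TEAD3 call was not made without parental replicate 2. DESeq2 and limma-voom each called 3 of the 10, where DESeq2 called 4072 and limma-voom 2387 of all 16490 genes. With the replicate number as a block it was 7 of 10, with TEAD2 and WWTR1 higher and VGLL1, VGLL4, TEAD1, TEAD3 and TEAD4 lower, where 34.6% of all genes passed. The 8 clone libraries did not overlap the 2 parental ones for 5 of 10 genes, against 27.0% of all genes (14.5% above and 12.5% below). Since the genes were chosen with this difference in view, and VGLL1 passed the count filter only through its parental libraries, these counts are no test of the 10 genes and support nothing about them.

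Among the clones, a comparison that played no part in that choice, 0 of the 10 genes passed edgeR's quasi-likelihood test of any difference, where 0.00606% of all genes, a single one, did. VGLL1 is counted there, but with at most 3 reads in any clone library it had too few for this test to tell anything. The smallest adjusted p was 0.917, for VGLL4, which was the 1 gene of the 10 with an unadjusted p under 0.05 (0.0417). DESeq2 passed 284 genes over all and limma-voom 0, and the block fit passed 139 (0.843%), none of them among the 10 in any of these. Setting 1 clone against the other 3 was planned for genes that passed the test of any difference, and VGLL4 did not pass it with or without the block. With the block, VGLL4 was higher in ABTr1 than in the mean of the other 3 clones, by 0.80 on the log2 scale (edgeR adjusted p = 0.0363), in a comparison that 2.97% of genes passed (2.27% higher). Without the block that call was not made (0 of 10 genes with edgeR, DESeq2 or limma-voom, with 1 at an unadjusted edgeR p under 0.05, where 0.0121% of all genes passed).

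Set per length, the order of the 10 genes in the clones began with CTGF at 169.1 ± 114.4, then YAP1 at 66.7 ± 8.95, WWTR1 at 32.8 ± 5.73, TEAD1 at 24.8 ± 1.71 and TEAD4 at 24.0 ± 6.41 RPKM (SD, n = 4). VGLL4 at 10.7 ± 3.51, TEAD2 at 10.3 ± 1.04, TEAD3 at 7.35 ± 1.14, VGLL3 at 0.726 ± 0.214 and VGLL1 at 0.0258 ± 0.0262 RPKM followed. CTGF and YAP1, TEAD1 and TEAD4, and VGLL4 and TEAD2 lay closer than the larger SD of the pair.

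Parental cells carried more VGLL1 per length than any of the other 9 genes. It was at 114.3 ± 17.8 RPKM there, followed by CTGF at 87.7 ± 36.7, YAP1 at 65.4 ± 10.6, TEAD4 at 41.7 ± 17.5, TEAD1 at 37.0 ± 9.85, WWTR1 at 19.3 ± 1.63, VGLL4 at 16.6 ± 6.61, TEAD3 at 13.2 ± 2.10, TEAD2 at 3.51 ± 3.79 and VGLL3 at 0.952 ± 0.358 RPKM (SD, n = 2). Neighbours whose means lay closer than the larger of their SDs were VGLL1 and CTGF, CTGF and YAP1, TEAD4 and TEAD1, WWTR1 and VGLL4, VGLL4 and TEAD3, and TEAD2 and VGLL3.

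These levels per length also give the make-up of each family. TEAD2 made up 16.0% ± 1.63 of summed TEAD RPKM in the clones and 3.22% ± 2.99 in parental cells, with clone libraries between 12.0% and 21.1% and parental libraries at 5.33% and 1.11%. TEAD1 held 37.6% ± 3.78 in the clones and 39.0% ± 1.55 in parental cells, and TEAD4 held 34.8% ± 7.40 in the clones and 42.9% ± 5.30 in parental cells. Only the TEAD2 share separated the groups without overlap. The TEAD sum itself was 66.5 ± 5.35 RPKM in the clones and 95.5 ± 29.1 RPKM in parental cells, and clone libraries reached into the parental range.

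YAP1 RPKM exceeded WWTR1 RPKM in every library, but by less in the clones. The ratio ran from 1.41 to 2.69 over the 8 clone libraries, with a median of 2.13, and was 3.19 and 3.56 in the parental ones. VGLL1 made up 0.231% ± 0.224 of summed VGLL1, VGLL3 and VGLL4 RPKM in the clones and 87.0% ± 2.84 in parental cells, and the sum of the 3 cofactors was 11.5 ± 3.58 RPKM in the clones against 131.8 ± 24.7 RPKM in parental cells. Measured against the TEAD sum, these cofactors stood at a ratio of 0.0893 to 0.315 in clone libraries and of 0.985 and 1.99 in parental libraries. Of the summed cofactor RPKM in the clones, nearly all was VGLL4, with a small amount of VGLL3.

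**Figure D2:**
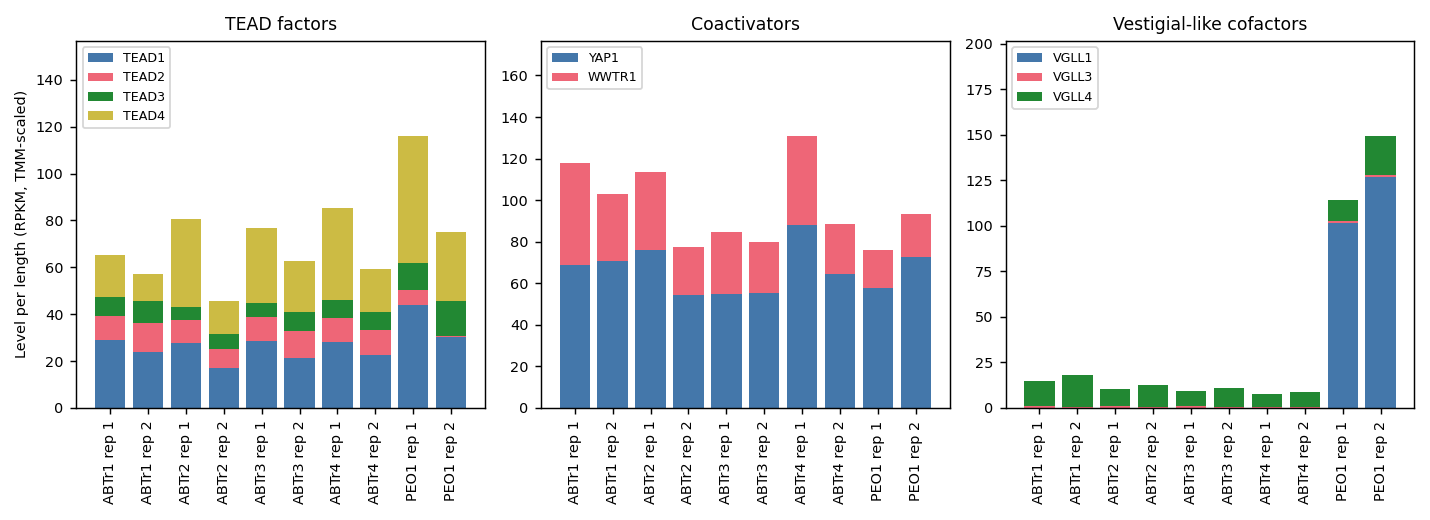
Stacked bars of RPKM (TMM-scaled, linear axis from 0) for the TEAD factors, the coactivators and the vestigial-like cofactors, 1 bar per library, with the 8 clone libraries left and the 2 parental ones right. VGLL1 fills most of the cofactor bar in parental cells (89.0% and 85.0% of it) and is not visible in the clones, and TEAD2 takes a wider band in each clone library.

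The genes whose log2 CPM followed VGLL1 most closely over the 10 libraries were RBBP8NL (Pearson r = 0.990), ALDH3B2 (0.988), TMPRSS13 (0.987), PROM2 (0.987) and SYT7 (0.986). PROM2, a membrane glycoprotein of epithelial protrusions, was at 0.731 to 1.98 CPM in clone libraries against 67.4 and 70.7 CPM in parental libraries. RBBP8NL was at 0 in all clone libraries, and at 4.37 and 7.71 CPM in parental ones. As the libraries fall into clones and parental cells for these genes, r mostly restates that split, and 335 genes had r over 0.9 with VGLL1.

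CTGF followed CYR61 most closely (r = 0.917), then ADAMTS1 (0.912), GNRHR2 (0.906), ABCC9 (0.898) and JAG1 (0.894), and 3 genes passed 0.9. CYR61, now named CCN1, is the sister gene of CTGF. VGLL3 followed WWC3 (r = 0.956), LOC100653515 (0.946), TULP4 (0.940), LARGE (0.937) and KDM6A (0.924). These are likenesses over 10 libraries that share depth and replicate number, given with no test.

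Genes around the TEAD factors were read in lists. Like the genes above, the lists were chosen with earlier results of these data known. Their calls on clones against parental cells, with the adjusted p-values, are therefore given as a description beside those of all genes. The counts are no independent test of the lists. Of 21 further target genes of YAP1 and TAZ, all tested, 0 rose and 4 fell in the mean of the 4 clones (edgeR, adjusted p under 0.05 over all genes), with a median log2 difference of -0.53, where that of all tested genes was 0.02. ANKRD1, the cardiac ankyrin repeat protein, fell by 3.22 on the log2 scale (SE 0.57, edgeR adjusted p = 0.00724). F3, tissue factor, fell by 2.60 (SE 0.70, edgeR adjusted p = 0.0386), IGFBP3, which binds insulin-like growth factors, by 1.32 (SE 0.36, edgeR adjusted p = 0.0393) and MYOF, a membrane repair protein, by 0.76 (SE 0.20, edgeR adjusted p = 0.0356). Over all genes 7.17% were called higher and 8.79% lower. In the fit without the block 0 of the 21 were higher at an unadjusted edgeR p under 0.05, and neither DESeq2 nor limma-voom called one higher (0 of 21 each). With the block, 8 fell and RBMS3 rose, where 34.6% of all genes were called. AXL, at 186 and 23.2 CPM in the parental libraries, had a log2 difference of 0.93 (SE 0.59) and was not called. Its log2 difference was 3.06 without parental replicate 1 and 0.098 without parental replicate 2.

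The levels behind these calls differ in kind. ANKRD1 was at 0.707 to 3.33 CPM over the clone libraries, with a median of 1.38, against 2.65 and 23.8 CPM in parental cells, so that without parental replicate 2 its log2 difference was -0.91 and not called (edgeR adjusted p = 0.319). F3 was at 4.13 to 69.9 CPM in clone libraries against 150.8 and 79.1 CPM in parental ones, and MYOF at 268 to 335 CPM against 628 and 391 CPM, both with no overlap. IGFBP3 was at 246 to 825 CPM in clone libraries against 1379 and 573 CPM in parental ones, and overlapped. Over 16 other settings ANKRD1 passed in 14, F3 in 10, IGFBP3 in 8 and MYOF in 5. F3 lost its call without parental replicate 1 (edgeR adjusted p = 0.211), parental replicate 2 (0.0976) or replicate 2 of ABTr1, ABTr3 or ABTr4. MYOF (edgeR adjusted p = 0.276) and IGFBP3 (0.416) lost theirs without parental replicate 1; MYOF also did so whichever clone library was left out, and IGFBP3 without either library of ABTr1 or of ABTr3 or without replicate 1 of ABTr4. CYR61 averaged 403 ± 223 CPM in the clones (SD, n = 4) and 393 ± 233 CPM in parental cells (SD, n = 2).

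Of 18 Hippo kinases and their adaptors, all tested, 1 rose and 4 fell, with a median log2 difference of -0.27, where 7.17% of all genes were called higher and 8.79% lower. WWC1, which encodes KIBRA, an activator of the LATS kinases, was at 50.8 to 95.0 CPM in the clone libraries, median 71.3, against 345 and 298 CPM in parental cells, a fall of 2.19 (SE 0.17, edgeR adjusted p = 2.00e-04). STK3, which encodes a core Hippo kinase, was at 35.2 to 51.9 CPM in clone libraries against 132 and 187 CPM in parental ones and fell by 1.91 (SE 0.17, edgeR adjusted p = 3.75e-04). Its paralog STK4 was at 161 to 309 CPM in clone libraries against 117 and 126 CPM in parental ones and rose by 0.93 (SE 0.24, edgeR adjusted p = 0.0342). Neither paralog overlapped between clones and parental libraries, and they went in opposite directions.

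TAOK3, an upstream kinase, fell by 1.48 (SE 0.23, edgeR adjusted p = 0.00441), and SAV1, the scaffold of the core kinases, by 0.90 (SE 0.19, edgeR adjusted p = 0.0170). LATS1 and LATS2, the kinases that phosphorylate YAP1 and TAZ, did not pass. LATS1 was at 76.9 to 105 CPM in clone libraries against 102 and 106 CPM in parental ones, and LATS2 at 42.3 to 83.5 CPM against 61.7 and 60.3 CPM. WWC1 and STK3 passed under each of 16 other settings, TAOK3 under 15, SAV1 under 14 and STK4 under 10. STK4 was not called without parental replicate 1 (edgeR adjusted p = 0.181), parental replicate 2 (0.155), replicate 1 of ABTr1 or ABTr4, or either library of ABTr3. TAOK3 was not called without parental replicate 2 (edgeR adjusted p = 0.0691), nor SAV1 without either parental library (0.0591 and 0.101). With the block, 2 genes of this list rose and 6 fell, where 34.6% of all genes were called.

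The list with the most calls was that of junction and polarity regulators of YAP1. In it 1 of 19 rose and 8 fell, with a median log2 difference of -0.72, against 7.17% of all genes called higher and 8.79% lower. CDH1, E-cadherin, was at 0.0430 to 9.56 CPM in clone libraries against 147 and 358 CPM in parental ones and fell by 8.19 (SE 0.70, edgeR adjusted p = 3.34e-04). CRB3, the Crumbs polarity protein, fell by 5.30 (SE 0.59, edgeR adjusted p = 9.30e-04) and INADL, its partner PATJ, by 2.52 (SE 0.24, edgeR adjusted p = 4.78e-04). LLGL2, a Lethal giant larvae homolog, fell by 2.28 (SE 0.26, edgeR adjusted p = 0.00113), while its paralog LLGL1 rose by 0.76 (SE 0.20, edgeR adjusted p = 0.0353). CTNNA1 and SFN also fell, by 1.38 and 1.20. AMOT fell by 1.36 (SE 0.38, edgeR adjusted p = 0.0446), but its clone libraries, at 9.45 to 20.7 CPM, overlapped the parental ones at 16.0 and 59.1 CPM, and without parental replicate 2 its log2 difference was -0.13 (edgeR adjusted p = 0.849).

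CDH1 is an epithelial marker as well, and the summed epithelial markers were lower in every clone library than in either parental one; their part in this list's count was not tested. CDH1, CRB3, INADL, LLGL2, CTNNA1 and SFN passed under each of 16 other settings, while LLGL1 passed under 7 and AMOT under 6. AMOT was also not called without either library of ABTr1, ABTr3 or ABTr4 or without replicate 1 of ABTr2. LLGL1 was not called without parental replicate 2 (edgeR adjusted p = 0.245), nor without any clone library other than replicate 1 of ABTr3. With the block, 13 of this list fell and 1 rose, against 34.6% of all genes called.

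AP-1 factors often sit beside TEAD factors at enhancers. Of 10 subunits 9 were tested, and 0 rose and 2 fell, with a median log2 difference of -1.26, beside 7.17% of all genes called higher and 8.79% lower. JUNB was at 55.8 to 270 CPM in clone libraries against 286 and 639 CPM in parental ones and fell by 1.72 (SE 0.39, edgeR adjusted p = 0.0194). JUND was at 27.4 to 84.3 CPM in clone libraries against 105 and 196 CPM in parental ones and fell by 1.26 (SE 0.34, edgeR adjusted p = 0.0376). Both lost the call without parental replicate 2 (edgeR adjusted p = 0.252 for JUNB and 0.348 for JUND), and JUND also without replicate 1 of ABTr1 or ABTr2 or either library of ABTr3. Without the block 1 subunit was higher in the clones at an unadjusted edgeR p under 0.05, and DESeq2 and limma-voom called 0 higher. With the block, 6 fell and 2 rose, beside 34.6% of all genes called.

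Of the remaining vestigial-like and CCN genes, VGLL2 and WISP3 were too low to test, and NOV, WISP1 and WISP2 gave 0 calls with edgeR, DESeq2 and limma-voom, with 1 unadjusted edgeR p under 0.05. With the block NOV was the 1 gene called, lower in the clones (edgeR adjusted p = 0.00333), where 34.6% of all genes were called. AMOTL2, LATS2 and PTPN14 stood in more than 1 list. Of the 67 tested genes of these 5 lists, 0 passed edgeR's test of any difference among the clones, where 1 of all 16490 did. An unadjusted p under 0.05 in that test was found for 5 of the 67 and for 874 of all genes. Of the other tools limma-voom called 0, DESeq2 called CDH1, CRB3 and NOV and the block fit called NOV (edgeR adjusted p = 0.0198). Over all genes limma-voom called 0, DESeq2 284 and the block fit 139 (0.843%).

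**Figure D3:**
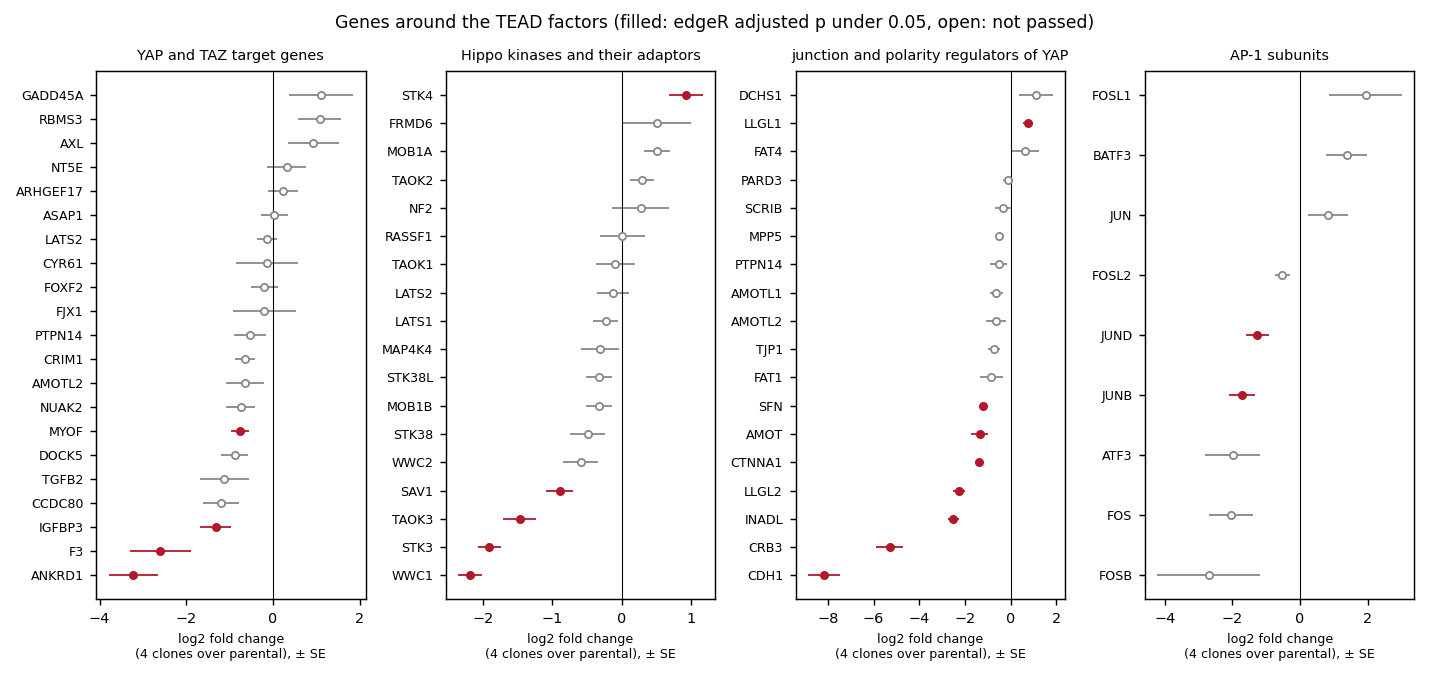
Log2 fold change of the mean of the 4 clones over parental PEO1, with the SE of the edgeR fit, for the tested genes of 4 lists, without 1 counted gene of the junction and polarity list; filled red points had an adjusted p under 0.05 and open grey points did not. CDH1 at -8.19 and CRB3 at -5.30 lie furthest left, and STK4 at 0.93 and LLGL1 at 0.76 are the only filled points right of 0.

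Several of the 10 genes also differed with the replicate number. In a fit of group and replicate number chosen after the data were seen, 4 of the 10 genes differed between replicate 1 and replicate 2, 3 of them higher and 1 lower in replicate 1, where 30.3% of all genes did (14.8% higher and 15.5% lower). The labels do not say what the number marks, and depth moved with it.

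TEAD4 was higher in replicate 1 in 5 of 5 groups, by 0.92 on the log2 scale (SE 0.15, edgeR adjusted p = 0.00212). TEAD1 was higher in 5 of 5 as well, by 0.45 (SE 0.11, edgeR adjusted p = 0.0155, and 0.0805 without the pair of ABTr2), and WWTR1 in the 4 clones but not in parental cells, by 0.46 over all groups (SE 0.15, edgeR adjusted p = 0.0458). The WWTR1 call was not made whichever clone pair was left out (edgeR adjusted p = 0.0786 to 0.164). VGLL4 was lower in replicate 1 in 5 of 5 groups, by a log2 of -0.40 (SE 0.13, edgeR adjusted p = 0.0387), a call not made whichever of the 5 pairs was left out (edgeR adjusted p = 0.0652 to 0.109).

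CTGF was higher in replicate 1 in each clone, 3.25 times in ABTr1, 10.8 times in ABTr2, 3.68 times in ABTr3 and 1.52 times in ABTr4, and lower in parental cells, at 0.544 times. Over the 5 groups its log2 difference was 1.36 (SE 0.50) and did not pass (edgeR adjusted p = 0.0623). A fit of the 4 clones alone, also chosen after the data were seen, leaves out the parental pair with its opposite sign. There the difference was 1.89 (SE 0.32, edgeR adjusted p = 0.00102), where 5710 of 16343 tested genes passed. CYR61 had the same signs in each group, being higher in replicate 1 of the 4 clones and lower in that of parental cells. Of the 9 tested AP-1 subunits 5 differed between the replicates, 3 higher and 2 lower in replicate 1, where 30.3% of all genes did. FOSL1 was higher in replicate 1 over the 5 groups by 1.93 (SE 0.46, edgeR adjusted p = 0.0118), and FOSB by 4.88 (SE 0.70, edgeR adjusted p = 0.00144). JUNB was lower, by a log2 of -0.80 (SE 0.20, edgeR adjusted p = 0.0138), and so was JUND, by -0.59 (SE 0.20, edgeR adjusted p = 0.0479).

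Whether that difference between replicates was the same in the clones as in parental cells was read from an interaction term, also chosen after the data were seen. For 1 of the 10 genes, TEAD2, it was not: the term was -2.96 on the log2 scale (SE 0.37, edgeR adjusted p = 0.00175), where 2.71% of all genes passed and 1.58% did so with this sign. It rests on the single parental pair, 14.4 and 1.93 CPM, against a ratio of replicate 1 over replicate 2 of 0.845 to 1.22 in the clones. VGLL3 (1.50, edgeR adjusted p = 0.120) and WWTR1 (0.79, edgeR adjusted p = 0.217) did not pass.

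**Figure D4:**
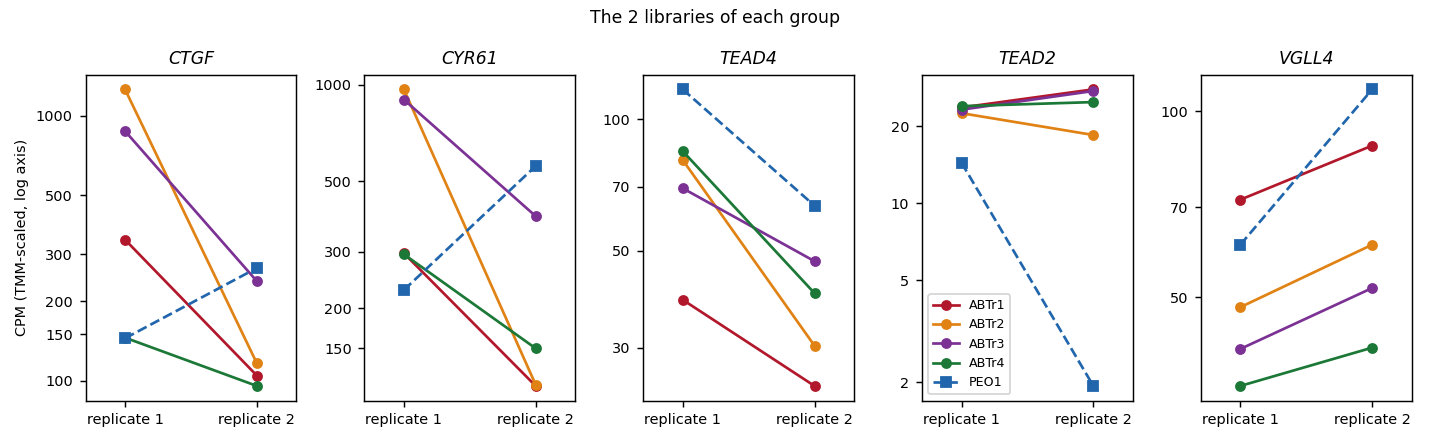
TMM-scaled CPM on log axes in replicate 1 and replicate 2 of each group for CTGF, CYR61, TEAD4, TEAD2 and VGLL4, with 1 line per group (clones solid, parental PEO1 dashed). CTGF and CYR61 fall towards replicate 2 in the 4 clones and rise in parental cells, TEAD4 falls in all 5 groups, and the parental line of TEAD2 drops to 1.93 CPM.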

How the data were processed

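RNA-seq of polyadenylated RNA was read in 10 libraries, 2 for each of 4 clones and parental PEO1. The deposited table holds the authors' read counts per gene. Per the submitters' processing notes, TopHat2 2.0.14, hg19 and featureCounts 1.4.6 of Subread were used; strand and multi-match settings were not given in the sources used here, and the kit named in the labels' protocols is not stranded. The deposited table also gives the exon length per gene in bases. Clone names follow the library titles, which number the clones differently from the sample descriptions. In no group did the 2 libraries duplicate each other, and libraries of different groups were not compared for this.

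Genes were filtered by filterByExpr (minimum count 10), leaving 16490. Scaling was by TMM. edgeR 4.0.16 under R 4.3.3 fitted a mean for each group (residual degrees of freedom 5), its quasi-likelihood test was used, p-values were adjusted by Benjamini and Hochberg across the 16490 genes with a limit of 0.05, and the procedure was checked on simulated counts. Means over clones use 4 clone means. DESeq2 1.42.0, limma-voom 3.58.1, RLE factors, library totals, no filter, each library left out and the replicate number as a block were alternatives. Deviations of same-numbered libraries from their group means correlated in all 10 pairs of groups (r = 0.280 to 0.731), over the limit of 0.1 set for pairing, so the block result is given where it changes a call; the pairing comes from the data, as the labels do not explain the number.

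The 10 genes and the 5 lists were chosen with earlier results of these data known. List genes named are up to 4 with the smallest adjusted p among those that passed, and all where 5 or fewer passed; likeness was taken over genes with a mean of at least 1 CPM. In the junction and polarity list, 1 gene that fell is counted but not reported by name here. Other genes named were chosen after their values were seen. Start regions are from RefSeq, GRCh38.p14; the hg19 coordinates of genes are those of the deposited table.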

Additional observations from a re-analysis of the deposited data

Results flagged for a closer look

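An interaction term in edgeR asked whether the difference between replicate 1 and replicate 2 in the clones was that of parental cells. Among the 10 genes and the 67 tested list genes 7 differed in this, where 447 of all 16490 tested genes did (2.71%). This fit was chosen after the data were seen, has 3 residual degrees of freedom and rests on 1 parental pair. TEAD2 was even between the replicates of the clones (0.845 to 1.22 times) and 7.45 times higher in replicate 1 of parental cells (interaction -2.96, SE 0.37, edgeR adjusted p = 0.00175). AXL, a receptor kinase and YAP target, had a similar shape, at 150 to 270 CPM in clone libraries against 186 and 23.2 CPM in parental ones (-3.08, edgeR adjusted p = 0.000643). FOSL1, at 126 to 848 CPM in clone libraries against 225 and 11.5 CPM in parental ones, was likewise lowest in parental replicate 2 (-2.87, edgeR adjusted p = 0.0232).

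The other 4 genes were highest in parental replicate 2 relative to its partner. ANKRD1 was at 2.65 CPM in parental replicate 1 and 23.8 CPM in replicate 2 (interaction 3.42, SE 0.62, edgeR adjusted p = 0.0125). CYR61 was at 228 CPM and 557 CPM there (2.92, edgeR adjusted p = 0.0236), NT5E, an ectonucleotidase, at 202 CPM and 672 CPM (2.24, edgeR adjusted p = 0.00771) and AMOT, a junction protein that binds YAP1, at 16.0 CPM and 59.1 CPM (1.55, edgeR adjusted p = 0.0297). CTGF had an interaction of 2.77 (SE 0.71) that missed the threshold (edgeR adjusted p = 0.0623).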

How the results depend on the processing

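With the replicate block the mean comparison of the clones with parental cells called 5699 genes and with DESeq2 4072, against 2631, and leaving out a library gave 918 to 2527. Any difference among clones called 1 gene, 284 with DESeq2, 0 with limma-voom, 2 with no filter, 139 with the block and 0 to 1 without a library. ABTr1 against the other clones called 2, with DESeq2 184, with no filter 6, with the block 489 and without a library 0 to 2; ABTr2 called 0, with DESeq2 18; ABTr3 called 0, with DESeq2 73 and with the block 34; ABTr4 called 0, with DESeq2 158, with no filter 1 and with the block 90. Calls in the lists, main and block, were 4 and 9 for targets (1 with library totals or limma-voom, 1 to 4 without a library), 5 and 8 for Hippo kinases (2 to 5), 9 and 14 for junction and polarity genes (6 to 9), 2 and 8 for AP-1 (1 with library totals or limma-voom, 0 to 3) and 0 and 1 for other vestigial-like and CCN genes. The comparison of replicates called 4999 genes, 2519 without the pair of ABTr2 and 2996 without that of ABTr4. Why these counts moved was not tested. Library totals in place of TMM moved the median log2 difference of all genes to 0.25, from 0.02, and the share of higher calls to 64.2%, from 44.9%, so fold changes are relative to that centre. No called value changed sign. With 2 libraries a group and parental libraries that lay far apart for some genes, small differences were not detectable here.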

Other observations

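NF2, which encodes merlin, an activator of the Hippo kinases, was near 1 CPM in every library, at 0.975 to 2.39 CPM in the clones and at 1.34 and 1.08 CPM in parental cells; it was singled out after its values were seen. Its levels per length were 0.213 ± 0.0299 RPKM in the clones (SD, n = 4) and 0.175 ± 0.0261 RPKM in parental cells (SD, n = 2). ADAMTS1, a secreted protease, spread from 2.75 to 177 CPM among clone libraries against 4.93 and 11.3 CPM in parental ones.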
